A study of Mus musculus with 9 samples.

Results

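The proteins of the cytosolic ribosome were followed as gene entries of a count table from mouse sciatic nerve. Entries were taken by name, as Rpl, Rps or Rplp followed by a number and at most an a, x or l, which gave 82 of the 25965 entries. Of these, 51 code for proteins of the large subunit and 31 for proteins of the small subunit, with the stalk proteins Rplp0, Rplp1 and Rplp2 counted as large. The nerves came from C57BL/6 mice in 3 groups, control littermates, PINCH1 mutants and PINCH2 mutants, with 3 libraries of total RNA in each. Every library pooled 4 nerves from 1 male and 1 female, with the epineurium stripped, and the age was given as day 15 in 1 label and day 14 in the protocol. The sources used here do not say how the alleles were made or which cells they affect. PINCH1 and PINCH2 are adaptor proteins of integrin adhesions, encoded by Lims1 and Lims2.

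The cytosolic ribosome joins a small subunit, which reads the mRNA, to a large subunit, which makes the peptide bond and holds the exit tunnel for the new chain. Nearly all of its proteins are needed in equal amounts, and ribosomal protein mRNAs are among the most abundant in most tissues. Most of these mRNAs begin with a run of C and U letters, the 5′ terminal oligopyrimidine (TOP) motif, through which growth signals set their translation.

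The whole table held 957828 to 1204964 counts per library, and 77 to 79 of the 82 entries had a count in each. Lims1 had 3, 7 and 7 counts in controls, 0, 1 and 3 in PINCH1 mutants and 0, 1 and 9 in PINCH2 mutants. Lims2 had 1 to 9 counts in controls, 1 to 5 in PINCH1 mutants and 1 to 5 in PINCH2 mutants, so these counts were too few to check the labels. Markers of Schwann cells and myelin were present at a summed 15506 to 17939 CPM (the count relative to the library size, adjusted by the TMM method) in controls. That sum was 12194 to 13641 CPM in PINCH1 mutants and 12109 to 14042 CPM in PINCH2 mutants, below every control in both. None of the 14 marker entries tested passed the edgeR test described below. At an unadjusted p under 0.05 there were 5 lower in PINCH1 mutants and 2 lower in PINCH2 mutants (all entries: 4.09% and 2.6% lower). With TMM factors from entries without an opposite-strand partner, a class defined below, 3 and 1 had such a p in either direction. Their median log2 fold changes were -0.49 and -0.22, or -0.33 and -0.11 with those factors. Skeletal muscle markers summed to 9.05 CPM or less in every library, with Tnnc2, Acta1, Myh2 and Mb at 0 counts throughout. Low marker counts do not show that an mRNA was absent, because the strand setting used in counting is not stated. Fibroblast and perineurial markers summed to 708 to 1405 CPM in controls, 892 to 943 in PINCH1 mutants and 590 to 959 in PINCH2 mutants, so the groups overlapped. Of the 7 such entries tested, 6 were below 0 on the log2 scale in PINCH1 mutants and 7 in PINCH2 mutants (4 and 6 with TMM factors from entries without an opposite-strand partner), and none passed. The part of these markers in the results below was not tested, and in bulk nerve fewer cells of a type and less RNA per cell cannot be told apart.

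Several ribosomal protein genes share exon letters with a gene on the other strand, and entries with and without such an overlap are compared, so shared stretches are shown first. An entry is said to have a partner where its exons, in the GENCODE M21 annotation of the mouse build GRCm38, overlap exons of another entry of the table on the opposite strand. Of the 82 entries, 16 had a partner (10 large, 6 small), in 18 pairs, and 66 had none. Some overlaps exist in that annotation only. Within the starts and ends given in the count table, the exon overlap was 0 bases for Rpl28 with Ube2s and Rpl32 with Cand2. It was also 0 for Rpl35 with Arpc5l and Rps25 with Trappc4. In 8 pairs the genes met at their 3′ ends, in 8 at their 5′ ends, and in 2 one lay within the span of the other. Below are 30 bases from a block shared by 2 coding transcripts in 3 pairs, each read once on the strand of the ribosomal protein gene and once on the partner's strand. The first stretch, chr11:78181490-78181519, lies in a coding exon of Rpl23a on the minus strand and in the 3′ UTR of Tlcd1 on the plus strand. The second, chr2:39001645-39001674, lies in a coding exon of Rpl35 on the minus strand and in the 3′ UTR of Wdr38 on the plus strand. The third, chr17:33819120-33819149, lies in the 3′ UTR of Rps28 on the minus strand and in a coding exon of Kank3 on the plus strand.
Rpl23a: ctcttgtgttcattgtggatgtcaaggcca
Tlcd1: tggccttgacatccacaatgaacacaagag
Rpl35: agaagcagcagcggaaggagcggctgtatc
Wdr38: gatacagccgctccttccgctgctgcttct
Rps28: gttcagctgctgattcagagcaatgcaagc
Kank3: gcttgcattgctctgaatcagcagctgaac

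Tracts of pyrimidines (C and T) were looked for near the annotated starts, because the TOP motif is a feature these mRNAs are known to share. In the RefSeq promoter table (build GRCm38.p6), 61 of the 82 entries were matched by symbol. A tract of at least 8 pyrimidines on the gene's strand, from 20 bases before to 50 after a listed start, was found in 48 of them, or 78.7%, against 28.5% of the 27025 genes in that table. The longest tract had a median of 10 bases in the ribosomal protein genes and 6 in all genes. Windows of 30 bases around the longest tract are given for 4 entries described below, with the tract in capitals. They lie at chr2:39005115-39005144 on the minus strand for Rpl35, chr17:27635226-27635255 on the minus strand for Rps10, chr17:28328572-28328601 on the plus strand for Rpl10a and chr7:45718062-45718091 on the plus strand for Rpl18.
Rpl35: gccccgCCCTTTCCTCTTTCTCTCgaacca
Rps10: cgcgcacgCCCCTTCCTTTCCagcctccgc
Rpl10a: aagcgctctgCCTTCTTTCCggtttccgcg
Rpl18: tcgcaggccgCTCTTTCCCCgcccactccg
A tract in these windows describes the letters only. The search did not require a tract to begin at the start, as a TOP motif does. The offsets of these tracts from the listed start were -7 for Rpl35, -3 for Rps10, 17 for Rpl10a and 1 for Rpl18.

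The ribosomal protein entries had low counts. The levels here and in the comparisons are those of the table's entries, on whichever strand reads were counted, and may not be levels of the mRNAs. Together they held 0.257%, 0.275% and 0.285% of the counts in the 3 controls, and the highest of them, Rpl10a, ranked 775 among all entries by total counts. None stood among the 100 entries with the most counts and 4 stood among the first 1000, while 3 of their partner entries stood among the first 100. Entries with a partner, of any gene, were 18.7% of the table's entries and held 83.7% to 88.3% of the counts of a library. The median control level was 24.7 CPM over the 82 entries and 25.3 CPM over the 4738 entries that passed the filter on low counts. Per kilobase of exon the medians were 12.2 and 7.13 CPM. The exon bases merge all transcripts of a gene in GENCODE M21, with 7440 for Rpl24 and 847 for Rpl23a. An order of genes on this scale therefore depends on the annotation and may not follow mRNA length. Large subunit entries had a median of 13.0 CPM per kilobase and small subunit entries 11.7. Members with a partner had a median of 19.1 CPM per kilobase and those without 11.3. Over all tested entries, the medians were 16.7 with a partner and 3.94 without.

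Counts of a ribosomal protein entry and of its partner differed widely, in both directions. In 6 of the 18 pairs the partner had more counts in every library, in 11 the ribosomal protein entry did, and in the remaining pair the order varied. Rpl23a, a protein at the exit tunnel, shares 506 exon bases with Tlcd1, a gene for a membrane protein. Rpl23a had 102 to 174 counts over the 9 libraries, and Tlcd1 had 4318 to 6315. Rpl35, also near the exit tunnel, shares 821 exon bases with Wdr38. It had 22 to 49 counts and Wdr38 had 3172 to 4972, a control level per kilobase 51.9 times that of Rpl35. Rpl5, which carries 5S rRNA into the large subunit, shares 953 exon bases with Fam69a. It had 31 to 125 counts and Fam69a had 2208 to 2888. Rpl18, a protein of the large subunit, had 59 to 96 counts, and its partner Sphk2, a sphingosine kinase, had 826 to 1818. Rpl15 had 25 to 66 counts and Nkiras1 940 to 1357. The ribosomal protein entries themselves had at most 256 counts in any library, with or without a partner.

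The other order was seen where the overlapping gene had few counts. Rps25, a small subunit protein of the head region, had 136 to 239 counts, the most of the small subunit, while its partners Ccdc84 and Trappc4 had 38 to 81 and 2 to 14. Rps28 had 66 to 131 counts and Kank3 0 to 12. Rps18 had 33 to 72 counts and Vps52 1 to 7. Neither the strand setting used in counting nor whether the kit keeps strand is stated in the sources. A count under either name of a pair therefore cannot be told apart from transcription of the other strand. For the 66 entries without a partner too, it is not known whether the counts come from the gene's own strand, and whether they do was not tested.

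**Figure D1:**
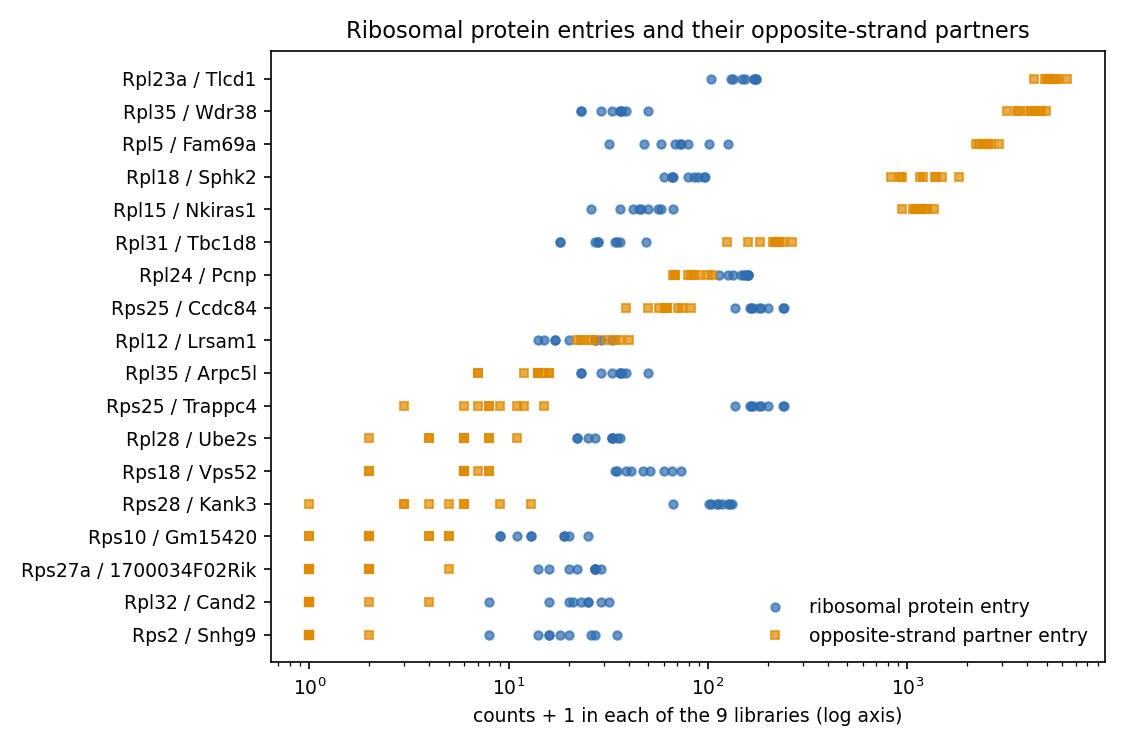
Counts plus 1 (log axis) of each ribosomal protein entry (circles) and its opposite-strand partner entry (squares) in the 9 libraries, with 1 row for each of the 18 pairs. Tlcd1, Wdr38, Fam69a, Sphk2 and Nkiras1 lie above their ribosomal protein entries in every library, while entries such as Rps25 and Rps28 lie above their partners.

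Low values of these entries were mostly odd numbers. Among entries without a partner, odd numbers made up 88.7% of the 291 values between 1 and 20 and 32.6% of the 215 values between 21 and 50. Over the whole table the low range was 78.6% odd. What this does to limits drawn from counting error was not tested.

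The entries with the highest levels came from both subunits. Rpl10a, the protein of the L1 stalk where spent tRNA leaves the ribosome, lies at chr17:28328471-28331032 on the plus strand and has no partner. It had 235, 179 and 188 counts in controls, 112, 135 and 163 in PINCH1 mutants and 256, 148 and 254 in PINCH2 mutants. Every PINCH1 mutant was below every control, and PINCH2 mutants lay on both sides of them. Its control level was 79.5 ± 17.7 CPM per kilobase (SD, n = 3), second to Rpl23a, at 178 ± 32.3. Rps25 followed at 69.8 ± 19.2 and Rps28 at 62.0 ± 6.27, levels that overlapped that of Rpl10a within their SD. Entries that came next, between 43.4 and 58.6 CPM per kilobase, included Rplp1, Rpl36, Rplp0, Rps3a and Rps15.

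Rpl24 and Rpl4 also had high counts. Rpl24, a protein of a bridge between the subunits, had 158, 146 and 158 counts in controls, 150, 125 and 153 in PINCH1 mutants and 112, 157 and 132 in PINCH2 mutants. Rpl4, which lines the exit tunnel, had 72, 70 and 72 counts in controls, 94, 53 and 74 in PINCH1 mutants and 75, 91 and 98 in PINCH2 mutants. On the TMM-scaled CPM, the PINCH2 mutants were the higher group without overlap for Rpl4 (84.7 ± 12.1 against 68.3 ± 5.35, SD, n = 3), and the lower group for Rpl24 (128 ± 7.78 against 147 ± 13.9). Its opposite-strand neighbour Zwilch, 283 bases from Rpl4 with no exon overlap, had 150 to 403 counts over the libraries. Rpl36, also of the large subunit, had 17 to 32 counts over all libraries on only 383 bases of exon.

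Tissue-restricted copies had few or no counts. Rpl3l, known from striated muscle, and Rpl10l and Rpl39l, known from testis, had 0 counts in every library. A count of 0 allows up to 3 counts, or 2.49 to 3.13 CPM before the TMM adjustment, depending on the library. The widely expressed counterparts of these copies had counts throughout, with 24 to 74 for Rpl3, 9 to 26 for Rpl10 and 1 to 13 for Rpl39. Rps27 had 9 to 20 counts and its copy Rps27l, a known p53 target, 0 to 15. Rpl22 had 5 to 22 and Rpl22l1 0 to 9, and Rpl7 had 17 to 72 and Rpl7l1 2 to 17. Reads of such copies, and of the many processed pseudogenes of this family, could be split or lost in counting. The 58 pseudogene entries named with -ps held 9 to 24 counts per library in all.

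The mutant nerves were then compared with control nerves. On their summed share of all counts, ribosomal protein entries were lower in both mutants on average, and the groups overlapped. The share was 0.272% ± 0.0145 (SD, n = 3) in controls, 0.227% ± 0.0279 in PINCH1 mutants and 0.240% ± 0.0319 in PINCH2 mutants. The PINCH1 mutant libraries held 0.258%, 0.204% and 0.218%, so the first was above the lowest control. The PINCH2 mutant libraries held 0.210%, 0.236% and 0.273%. On the TMM-scaled sum, which allows for composition, controls had 2691 to 2814 CPM and PINCH1 mutants 2195 to 2485, with no overlap, while PINCH2 mutants ran from 2161 to 2884. On the unscaled share, the lowest library of each mutant group was also its smallest by total counts, PINCH1 mutant replicate 2 (957828 counts) and PINCH2 mutant replicate 1 (973578 counts). After scaling, the lowest PINCH1 mutant library was replicate 3, the largest of its group (1204398 counts). The part of depth in the shares was not tested.

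The proportion of the subunits did not differ beyond its spread. Large subunit counts were 1.82, 1.81 and 1.81 times the small subunit counts in controls, 1.59, 1.91 and 1.82 times in PINCH1 mutants and 2.03, 1.75 and 1.77 times in PINCH2 mutants, so the means differed by less than the SD of either mutant group (0.167 and 0.154). Large subunit entries held 0.175% ± 0.00918 of control counts, 0.144% ± 0.0125 of PINCH1 mutant counts and 0.155% ± 0.0176 of PINCH2 mutant counts. For small subunit entries the shares were 0.0969% ± 0.00533, 0.0824% ± 0.0154 and 0.0845% ± 0.0147. Entries with a partner held 0.101% ± 0.00366 in controls, 0.0878% ± 0.0104 in PINCH1 mutants and 0.0973% ± 0.00279 in PINCH2 mutants. Those without a partner held 0.171% ± 0.0141, 0.139% ± 0.0175 and 0.142% ± 0.0326. The partner entries held 1.32% ± 0.0418 of control counts, 1.41% ± 0.0767 in PINCH1 mutants and 1.39% ± 0.0806 in PINCH2 mutants. Among entries without a partner only, the ribosomal protein share was 1.11% to 1.205% in controls, 0.959% to 1.10% in PINCH1 mutants and 0.830% to 1.24% in PINCH2 mutants.

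**Figure D2:**
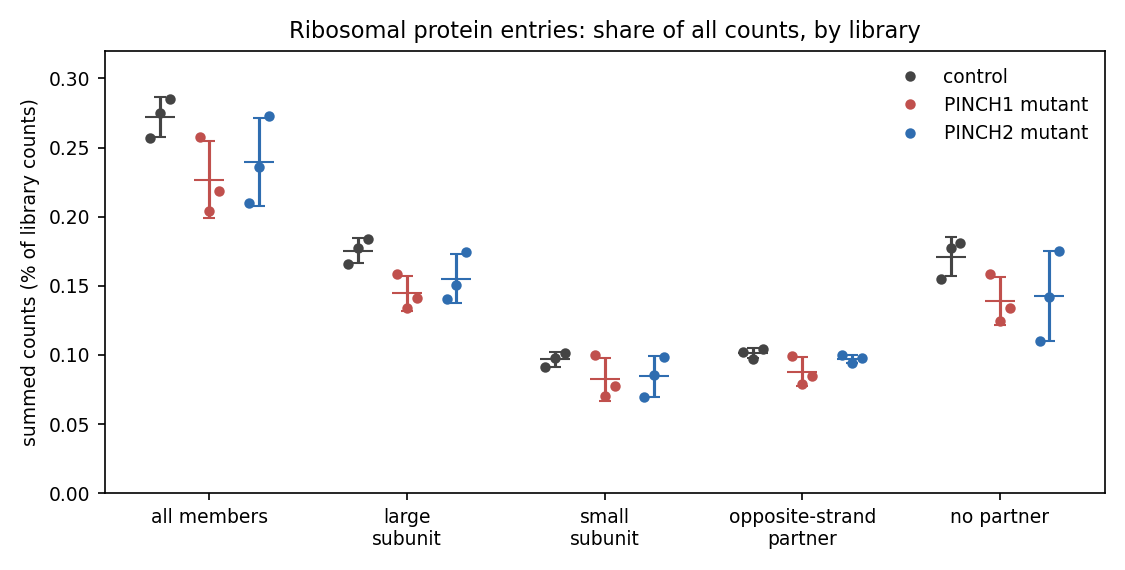
Summed counts of ribosomal protein entries as a percent of the library's counts, for all entries, each subunit, and entries with and without an opposite-strand partner. Points are libraries, horizontal marks are means of 3 and bars are SD. Controls sit between 0.257% and 0.285% for all entries, and each mutant group has at least 1 library inside that range.

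Each entry was tested with edgeR's quasi-likelihood F-test on the whole table, with p-values adjusted by the Benjamini-Hochberg method over 4738 entries and a threshold of 0.05. Of the 82 ribosomal protein entries, 69 entered the test (41 large, 28 small; 16 with a partner, 53 without). The other 13 did not, 3 of them at 0 counts in every library and 10 too low for the filter: Rpl17, Rpl22l1, Rpl27, Rpl29, Rpl34, Rpl35a, Rpl38, Rps13, Rps21 and Rps27l. Because the filter can let in an entry through the group where it is high, the counts below describe the entries tested and not all 82. The replicates were pools of nerves, so p-values measure the spread between pools. The same controls serve both mutants, and the comparisons with them are therefore not independent.

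In PINCH1 mutants against controls, 0 of the 69 entries passed the threshold, and 0.0633% of all entries did. The smallest adjusted p from edgeR was 0.5025, for Rplp0. DESeq2 and limma-voom also called 0. At an unadjusted p under 0.05, edgeR had 5 entries lower and 0 higher (all entries: 4.09% lower and 2.28% higher), DESeq2 had 2 lower and limma-voom 4 lower. That count of 5 was 1 with the scaling factors taken from entries without a partner, 2 without control replicate 1, 8 without control replicate 2 and 0 without PINCH1 mutant replicate 3. Of the 69 entries, 55 were below 0 on the log2 scale, and their median was -0.24, against 52.2% of all entries and a median of -0.02. Groups did not overlap for 9 entries that were lower and 0 that were higher, against 7.49% and 6.16% of all entries. Without a partner, 6 of 53 were lower in this way and 0 higher, against 262 and 78 of all 2323 such entries tested. With a partner, 3 of 16 were lower and 0 higher, against 93 and 214 of 2415. Entries without a partner were on the whole lower too, with 62.8% of 2323 below 0 and a median of -0.16. When the scaling was taken from entries without a partner, the median of all entries moved to 0.13, and 41 of the 69 ribosomal protein entries were below 0 with a median of -0.10. Under either scaling the ribosomal protein median lay below that of all entries.

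Both subunits and both strand classes had medians below 0 in that comparison. The median log2 fold change was -0.24 for large subunit entries (34 of 41 below 0) and -0.25 for small subunit entries (21 of 28 below 0). It was -0.17 for entries with a partner (12 of 16 below 0) and -0.25 for those without (43 of 53 below 0). With scaling from entries without a partner these 4 medians were -0.07, -0.12, -0.02 and -0.10. Over all tested entries, with the main scaling, the medians were 0.06 with a partner and -0.16 without. No difference between the subunits or between the strand classes was tested. Leaving out libraries in turn gave a median of -0.35 (72 entries tested, without control replicate 1) to -0.14 (70 entries tested, without control replicate 3).

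The entries with the smallest p in PINCH1 mutants were 4 that were lower. Rplp0, the scaffold of the acidic stalk that recruits elongation factors, lies at chr5:115559467-115563727 on the plus strand, without a partner. It had 78, 91 and 106 counts in controls, 70, 43 and 43 in PINCH1 mutants and 54, 107 and 106 in PINCH2 mutants. All PINCH1 mutants were below all controls and PINCH2 mutants were not, with means of 87.1 ± 7.26, 49.5 ± 13.99 and 84.4 ± 25.1 CPM (SD, n = 3). Rplp0 thus had a log2 fold change of -0.82 in PINCH1 mutants, with an SE of 0.275 and an adjusted p from edgeR of 0.5025. Rpl6, a large subunit protein, had 41, 32 and 32 counts in controls, 26, 17 and 20 in PINCH1 mutants and 20, 34 and 22 in PINCH2 mutants. On the scaled level it was lower without overlap in both mutants (33.7 ± 7.52, 19.9 ± 3.55 and 23.9 ± 3.96 CPM), and neither passed. Rpl3, a protein close to the peptidyl transferase centre, had 74, 51 and 41 counts in controls, 24, 38 and 29 in PINCH1 mutants and 24, 45 and 54 in PINCH2 mutants, with a log2 fold change of -0.86 (SE 0.371) in PINCH1 mutants and overlap between scaled groups. Rps10, on the head of the small subunit, had 19, 18 and 24 counts in controls, 8, 12 and 8 in PINCH1 mutants and 10, 12 and 18 in PINCH2 mutants. Its PINCH1 mutant values were all below the controls, with a log2 fold change of -1.09 (SE 0.476). Its partner Gm15420 had 0 to 4 counts, too few to test.

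Rpl10a, whose counts are given above, was the fifth entry with an unadjusted p under 0.05 in PINCH1 mutants, at 130 ± 26.0 CPM against 193 ± 42.9. Others lower without overlap included Rps3a, Rpl32, Rplp1 and Rps28. In the opposite direction, the 4 entries with the smallest p were all of the small subunit, and each overlapped with controls. Rps12, of the beak, had 9, 9 and 5 counts in controls and 24, 13 and 11 in PINCH1 mutants, which overlap only after scaling. Rps14, of the platform, had 19, 42 and 26 against 61, 33 and 32. Rps15 had 34, 26 and 25 against 34, 28 and 54, and Rps16 had 17, 17 and 21 against 19, 24 and 28. These 2 proteins sit in the head of the small subunit.

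PINCH2 mutants against controls gave 0 of 69 entries past the threshold, with 0.0211% of all entries. The smallest adjusted p from edgeR among the ribosomal protein entries was 0.9987, and DESeq2 and limma-voom also called 0. At an unadjusted p under 0.05, edgeR had 4 entries lower and 0 higher (all entries: 2.6% and 1.67%), DESeq2 had 3 lower and limma-voom 4 lower. That count of 4 was 2 without control replicate 3, and 1, 7 and 10 without PINCH2 mutant replicates 1, 2 and 3. On the log2 scale 52 of the 69 entries were below 0, and their median was -0.28, against 49.3% of all entries and a median of 0.00. Groups did not overlap for 8 lower entries and 1 higher entry, against 4.81% and 4.24% of all entries. Without a partner, 7 of 53 were lower in this way and 1 higher, against 168 and 78 of all 2323 such entries tested. With a partner, 1 of 16 was lower and 0 higher, against 60 and 123 of 2415. With scaling from entries without a partner, 46 of 69 were below 0 with a median of -0.18, and the median of all entries was 0.11. Large subunit entries had a median of -0.31 (30 of 41 below 0) and small subunit entries -0.22 (22 of 28 below 0). With that scaling these were -0.22 (28 of 41) and -0.11 (18 of 28).

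The strand classes had unlike medians in PINCH2 mutants. Entries with a partner had a median log2 fold change of -0.04 (9 of 16 below 0), and those without a partner -0.36 (43 of 53 below 0). With scaling from entries without a partner, the first turned to 0.06 and the second was -0.26. Over all tested entries the medians were 0.05 with a partner and -0.11 without, and the difference between the classes was not tested. The size depended on single libraries, in both directions. Without PINCH2 mutant replicate 1 the median over ribosomal protein entries was -0.15 and 47 of 73 were below 0, and without PINCH2 mutant replicate 3 the median was -0.47.

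The smallest p in PINCH2 mutants belonged to Rps4x, the X-linked small subunit protein, at chrX:102184941-102189394 on the minus strand, without a partner. It had 40, 63 and 61 counts in controls, 53, 24 and 40 in PINCH1 mutants and 24, 36 and 22 in PINCH2 mutants. Every PINCH2 mutant was below every control, with means of 51.8 ± 9.35 and 25.9 ± 4.03 CPM (SD, n = 3) and 36.3 ± 10.9 CPM in PINCH1 mutants. In PINCH2 mutants Rps4x had a log2 fold change of -0.99, with an SE of 0.325 and an adjusted p from edgeR of 0.9987. Rpl9, at the base of the stalk, had 32, 13 and 34 counts in controls, 24, 15 and 28 in PINCH1 mutants and 9, 19 and 11 in PINCH2 mutants. Rps9, near the mRNA entry, had 24, 36 and 43 counts in controls, 43, 11 and 35 in PINCH1 mutants and 7, 24 and 22 in PINCH2 mutants. Rpl8, near the peptidyl transferase centre, had 22, 32 and 36 counts in controls, 42, 17 and 22 in PINCH1 mutants and 5, 13 and 26 in PINCH2 mutants. Of these last 3, only Rps9 was lower without overlap on the scaled level, and PINCH2 mutant replicate 1 was the lowest library for each.

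Entries lower without overlap in PINCH2 mutants, beside Rps4x, Rps9, Rpl6 and Rpl24, were Rpl37a, Rpl13, Rps3a and Rplp1. In the opposite direction the smallest p-values were those of Rps14, Rpl12, Rpl4 and Rpl35. Rps14 had 24, 66 and 54 counts in PINCH2 mutants, with a log2 fold change of 0.71 (SE 0.381). Rpl12, at the stalk base, had 14, 16 and 26 counts in controls and 19, 32 and 28 in PINCH2 mutants, while its partner Lrsam1 had 33, 23 and 25 and then 22, 39 and 35. Rpl35 had 22, 35 and 35 counts in controls and 28, 49 and 36 in PINCH2 mutants. Wdr38, which overlaps Rpl35, had 3615, 3172 and 4161 counts in controls, 4356, 4014 and 4702 in PINCH1 mutants and 3546, 4972 and 4646 in PINCH2 mutants. After scaling, Wdr38 was higher without overlap in both mutants, with log2 fold changes of 0.25 and 0.27 (SE 0.142 for each) and edgeR adjusted p of 0.7839 and 0.9987. Of the 18 partner entries, 10 were tested with edgeR and none passed in any comparison, nor did any have an unadjusted p under 0.05. With scaling from entries without a partner, 2 of the 10 had one in PINCH1 mutants against controls, where 1 was below 0 and the median was 0.20.

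**Figure D3:**
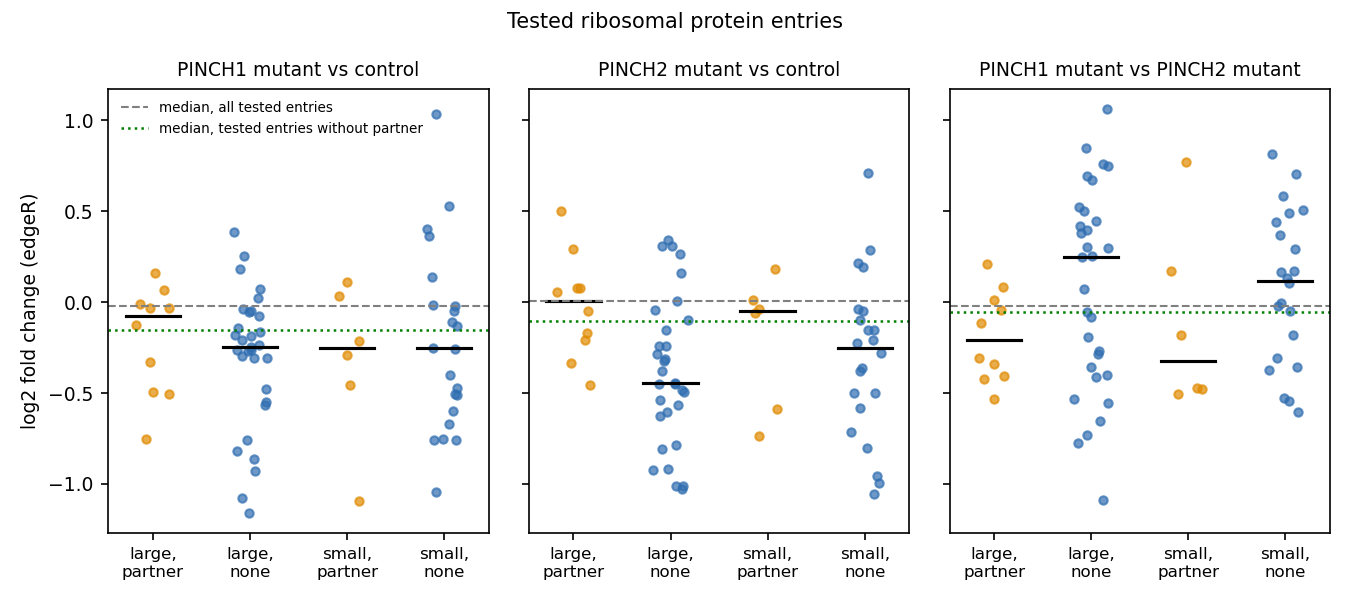
Log2 fold changes (edgeR, vertical axis) of the 69 tested ribosomal protein entries in the 3 comparisons, by subunit and by presence of an opposite-strand partner. Points are entries, black bars class medians, the dashed line the median of all tested entries and the dotted line that of tested entries without a partner. In both comparisons with controls most points lie below the dashed line (scaling as in the text), and in the comparison of the mutants they spread evenly around it.

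Between the mutants, 0 of 69 entries passed and 0.0844% of all entries did. At an unadjusted p under 0.05, edgeR had 4 entries lower in PINCH1 than in PINCH2 mutants and 1 higher, against 3.44% and 2.91% of all entries. DESeq2 and limma-voom also called 0, with 2 and 3 lower and 1 higher each at that level. With edgeR there were 2 lower without control replicate 3 and without PINCH1 mutant replicate 1 or 2, 1 lower and 3 higher without PINCH1 mutant replicate 3, and 0 lower and 6 higher without PINCH2 mutant replicate 3. On the log2 scale 35 of 69 entries were below 0, and their median was -0.01 (0.05 with scaling from entries without a partner), against 52.6% of all entries. Groups did not overlap for 4 lower and 2 higher entries, against 5.57% and 5.42%. Large subunit entries had a median of -0.04 (0.01 with that scaling) and small subunit entries 0.05, and entries with and without a partner had medians of -0.24 and 0.13.

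The entries named for that comparison had SEs of 0.196 to 0.465. On the log2 scale Rpl10a differed by -0.73 (SE 0.257) and Rplp0 by -0.77 (SE 0.275), with adjusted p from edgeR of 0.602 and 0.619. Rps28 had 102, 66 and 111 counts in PINCH1 mutants, 128, 116 and 131 in PINCH2 mutants and 110, 100 and 125 in controls. Rpl23a had 133, 102 and 147 counts in PINCH1 mutants, 169, 174 and 153 in PINCH2 mutants and 170, 129 and 174 in controls. Both were lower in PINCH1 mutants without overlap on the scaled level. Tlcd1, the partner of Rpl23a, had a log2 fold change of 0.07 between the mutants. In the opposite direction, Rpl7a, of the large subunit, had 38, 19 and 28 counts in PINCH1 mutants and 3, 15 and 22 in PINCH2 mutants. Rps2, near the mRNA entry, had 25, 26 and 15 against 7, 13 and 19. For Rpl7a, Rpl8, Rpl9 and Rps2, PINCH2 mutant replicate 1 again had the lowest count of its group.

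**Figure D4:**
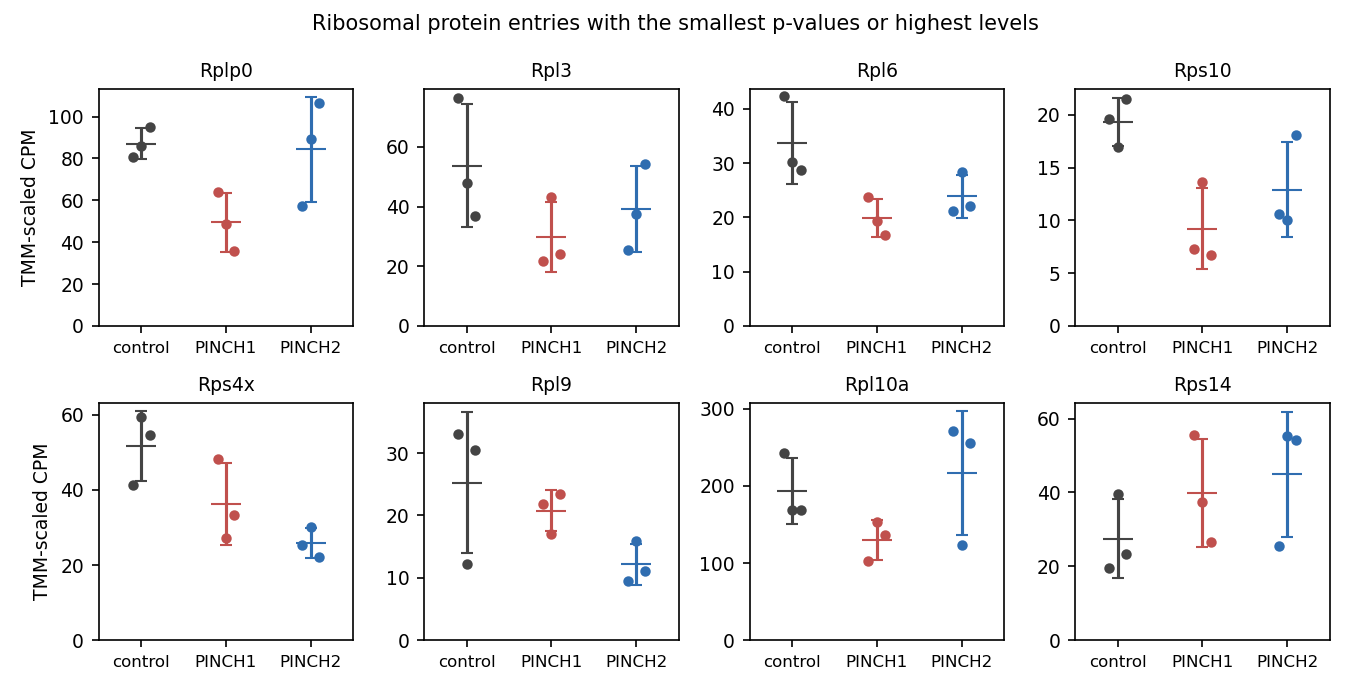
TMM-scaled CPM of 8 ribosomal protein entries in each library, with means of 3 (horizontal marks) and SD (bars). Rplp0 and Rps10 in PINCH1 mutants and Rps4x in PINCH2 mutants lie below all controls, Rpl6 does so in both mutants, and Rps14 overlaps between groups; none passed the test.

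Other genes of the translation machinery were described from lists chosen by function. Ribosomal proteins named outside the pattern had 4 tested entries, all below 0 in both mutants (medians of -0.32 and -0.29), and 0 passed in edgeR, with 0 at an unadjusted p under 0.05. Gnb2l1, which codes for the scaffold protein RACK1, had 37, 43 and 37 counts in controls, 43, 23 and 39 in PINCH1 mutants and 23, 27 and 38 in PINCH2 mutants. Rpsa, the laminin receptor protein of the small subunit, had 34, 30 and 53 counts, then 26, 19 and 32, and 24, 49 and 24. A list of elongation and initiation factors with TOP mRNAs also held Tpt1, Pabpc1, Npm1, Nap1l1 and Hnrnpa1. This list had 15 tested entries, of which 11 were below 0 in PINCH1 mutants (median -0.29) and 10 in PINCH2 mutants (median -0.21). In edgeR 0 passed, with 2 lower in each mutant at an unadjusted p under 0.05 (all entries: 4.09% and 2.6% lower). With TMM factors from entries without a partner, 0 in PINCH1 mutants and 1 in PINCH2 mutants had such a p in either direction. Eef1a1, which brings aminoacyl tRNA to the ribosome, had 333 ± 55.2 CPM in controls, 256 ± 35.0 in PINCH1 mutants and 250 ± 46.1 in PINCH2 mutants. Tpt1, a small protein with a TOP mRNA, had 151 ± 24.4, 124 ± 24.03 and 144 ± 16.9 CPM (SD, n = 3). With scaling from entries without a partner, the medians were -0.17 and -0.19 for the first list and -0.16 and -0.12 for the second.

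Ribosome biogenesis factors had 9 tested entries of 47 in the table, with 3 below 0 in each mutant and medians of 0.10 and 0.12 (0.23 and 0.22 with scaling from entries without a partner). In edgeR 0 passed, with 1 higher in PINCH1 mutants at an unadjusted p under 0.05 (all entries: 2.28% higher). Tsr1, a maturation factor of the small subunit, had 1067 to 1441 counts in controls, 1297 to 1578 in PINCH1 mutants and 1068 to 1625 in PINCH2 mutants. Bysl, of the same process, had 904 to 1260, 1441 to 1531 and 828 to 1442. Both of these entries have an opposite-strand partner. Growth regulators of ribosome synthesis had 6 tested entries, with 6 below 0 in PINCH1 mutants (median -0.61, or -0.45 with scaling from entries without a partner) and 3 in PINCH2 mutants (median -0.10, or 0.01 with that scaling). In edgeR 0 passed, with 0 at an unadjusted p under 0.05 against controls. Tsc2, a brake on mTOR signalling that also has a partner, had 1443 to 1568 counts in controls, 1286 to 1592 in PINCH1 mutants and 1243 to 1786 in PINCH2 mutants. Mxd4, a partner of Max that opposes Myc, had 13, 24 and 32 counts in controls, 30, 5 and 23 in PINCH1 mutants and 17, 19 and 22 in PINCH2 mutants.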

How the data were processed

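Sciatic nerve RNA was made into TruSeq libraries, per the labels' protocols. The submitters' processing notes name HISAT2 2.0.5, Trim Galore 0.4.2, cutadapt 1.9.1 and the build GRCm38. The authors deposited 1 table of raw counts per gene entry; its counting tool, strand setting and annotation release are not stated there. Of its entries, 96.4% were matched by ID to GENCODE M21. Overlaps were found with bedtools 2.31.1. Groups came from the labels, and no column was left out. Counts were fitted with edgeR 4.0.16 in R 4.3.3 (TMM, filterByExpr, robust quasi-likelihood, genotype as the only term, all 9 libraries) and tested on simulated data. SE is the absolute log2 fold change over the square root of F. Intervals for a count of 0 cover counting error only. Alternatives were other scalings, filters and tools (DESeq2 1.42.0, limma 3.58.1), the replicate number as a block and each library left out.

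The members and lists were chosen with earlier results of these data known. Named by rule were, in each comparison, the 4 tested members with the smallest p in each direction, the 6 with the highest CPM in each subunit, the 4 highest per kilobase without a partner, paralog pairs, the partners of those, and the 2 highest entries of each list. Rpl5, Rpl15, Zwilch, and the other entries named for not overlapping between groups were chosen after their values were seen. One entry that this rule names is not reported here.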

Additional observations from a re-analysis of the deposited data

How the results depend on the processing

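No ribosomal protein entry passed the threshold in any comparison under any alternative run, and the median over all members kept its direction against controls in each. TMM factors from entries without a partner moved it most among scalings, as given above. The median for large subunit entries between the mutants was -0.04 and ran from -0.16 to 0.25 as libraries were left out, turning above 0 without PINCH2 mutant replicate 3, and the cause was not tested. With the replicate number as a block, the medians were -0.21, -0.27 and -0.01 in the order of the report, and 0 members passed. Whether the numbers pair the libraries was not settled: over 9 same-number pairs the correlation of deviations ran from -0.10 to 0.23. Of the 9 libraries, 3 correlated best with their own number in both other groups, and these were the replicate 2 libraries. Depth limits the members, whose summed counts were 1955 to 3141 per library.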
